A study of Mus musculus with 6 samples.

Results

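The serine proteases matriptase (St14), prostasin (Prss8) and TMPRSS2 (Tmprss2), the Kunitz-type inhibitors Spint1 and Spint2 and the clade B serpins Serpinb11 and Serpinb5 were followed in RNA-seq libraries of uterine cells sorted by an Axin2 reporter. These 7 genes were taken by symbol from the 26586 genes of the count table. They were selected on their roles as the matriptase and prostasin axis with its inhibitors, with the read counts of the 2 fractions in view, and Serpinb11 was chosen by the size of its difference in read counts between them. Values of the 7 genes between the fractions are therefore given as a description, with no p-value. All 6 libraries came from mice carrying the alleles Axin2rtTA and tetOH2BJGFP, in which the Axin2 promoter drives a doxycycline-dependent activator and the activator switches on a GFP-tagged histone. Ovaries were removed from the 3 mice at an age of 4 weeks, doxycycline was given after 2 weeks of rest, and the uterus was collected 4 days later, the age then being given as 6 weeks. Epithelial cells of the endometrium were freed and sorted into a GFP-positive fraction, labelled Axin2+ (3 libraries), and a GFP-negative fraction, labelled Axin2- (3 libraries), numbered by mouse. The labels also speak of pooling the cells of the mice, so the spread between libraries may be technical in part. The purpose of the comparison, as the series is titled, is to describe Axin2+ cells of the endometrium.

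Matriptase is a type II transmembrane protease of epithelial cells, and prostasin is a membrane-anchored trypsin-like protease that acts with it in a mutual activation pathway. Both are needed for epithelial barriers, and HAI-1 (the product of Spint1) and HAI-2 (the product of Spint2) are their membrane-bound Kunitz inhibitors. TMPRSS2 is a relative of matriptase that is expressed in many glandular epithelia. Clade B serpins are mostly intracellular. Maspin (Serpinb5) is a member that does not inhibit proteases in the usual way, and Serpinb11 belongs to the same gene cluster.

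Promoter windows, from 250 bases before to 50 after the start site, were found for 5 of the 7 genes in the RefSeq-derived table (GRCm38.p6), but not for St14 or Prss8. Those of 4 genes are shown because they differ in base composition and in the motifs they hold. Each is written 5′ to 3′ on the strand of the gene, and capitals mark matches, on either strand, to CAGGTG (the E-box bound by SNAI and ZEB factors), CCGGAA (ETS), AACCGG (GRHL), CTTTGA (TCF/LEF), TGTTTA (forkhead) or CCACCC (KLF). The windows are chr2:119237110-119237409 (plus strand) for Spint1, chr7:29281928-29282227 (minus strand) for Spint2, chr1:107362064-107362363 (plus strand) for Serpinb11 and chr1:106860925-106861224 (plus strand) for Serpinb5.
Spint1: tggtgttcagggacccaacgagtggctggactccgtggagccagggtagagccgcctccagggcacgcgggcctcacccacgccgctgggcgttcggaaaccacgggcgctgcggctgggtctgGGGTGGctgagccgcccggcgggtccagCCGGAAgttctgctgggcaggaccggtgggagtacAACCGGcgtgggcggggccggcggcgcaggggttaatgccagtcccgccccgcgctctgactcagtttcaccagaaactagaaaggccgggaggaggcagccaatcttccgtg
Spint2: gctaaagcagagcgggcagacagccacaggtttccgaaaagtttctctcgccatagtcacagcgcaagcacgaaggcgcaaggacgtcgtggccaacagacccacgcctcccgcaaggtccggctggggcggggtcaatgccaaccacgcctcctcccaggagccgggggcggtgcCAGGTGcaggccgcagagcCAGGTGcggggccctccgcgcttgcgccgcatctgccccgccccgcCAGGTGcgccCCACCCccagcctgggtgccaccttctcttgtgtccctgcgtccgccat
Serpinb11: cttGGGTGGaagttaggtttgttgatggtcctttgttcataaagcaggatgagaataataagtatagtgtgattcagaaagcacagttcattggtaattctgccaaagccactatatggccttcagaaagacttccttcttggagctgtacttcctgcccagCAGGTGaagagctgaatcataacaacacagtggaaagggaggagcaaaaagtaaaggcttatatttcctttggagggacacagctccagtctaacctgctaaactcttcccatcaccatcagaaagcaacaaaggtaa
Serpinb5: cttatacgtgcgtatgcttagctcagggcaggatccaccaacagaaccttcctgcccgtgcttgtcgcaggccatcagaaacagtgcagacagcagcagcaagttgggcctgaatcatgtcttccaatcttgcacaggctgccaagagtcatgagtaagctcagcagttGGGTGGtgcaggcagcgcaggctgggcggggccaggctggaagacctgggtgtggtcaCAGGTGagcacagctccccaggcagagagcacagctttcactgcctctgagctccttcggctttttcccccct

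The Spint1 and Spint2 windows were rich in G and C, at 69.7% and 69.3%, with 28 and 26 CpG dinucleotides. The Tmprss2 window, which is not shown and held none of the motifs, had 62.3% and 13 CpG, and that of Serpinb5 58.3% and 7. The Serpinb11 window stood apart with 42.7% and no CpG, against a median of 53.0% and 7 CpG over 32544 windows of the table. CAGGTG was found in 3 of the 5 windows, those of Spint2, Serpinb5 and Serpinb11, and in 20.28% of all windows. Spint2 held it 3 times, starting at positions -74, -55 and -9 from the start site. CCACCC was found in 4 of the 5 windows and in 31.55% of all windows. CCGGAA (14.98% of all windows) and AACCGG (6.87%) were found in the Spint1 window alone, at -98 and -63. CTTTGA and TGTTTA, at 16.02% and 13.44% of all windows, were in none of the 5. The RefSeq start used for Serpinb11 lies downstream of the gene start in the annotation used below. No matches overlapped, and a match describes letters only, not binding.

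The libraries held from 49714402 to 59597315 counted reads. Axin2 itself was lower in the libraries labelled Axin2+, at 236 ± 67.7 against 361 ± 6.85 CPM (counts per 1000000 of the TMM-scaled library size; SD, n = 3 each), a difference that missed the threshold of edgeR (adjusted p = 0.0710). Leaving out the mouse 3 library labelled Axin2+ brought it past the threshold (adjusted p = 0.0290, log2 fold change -0.82), and so did DESeq2 (0.0331). The gene that names the fractions thus went against the labels without passing the test of the full set, and each direction below is that of the libraries as labelled. The summed CPM of 10 epithelial markers ran from 190 to 292 in the libraries labelled Axin2- and from 2264 to 3402 in those labelled Axin2+, and that of 5 uterine gland markers from 20.5 to 36.4 and from 313 to 415. Both fractions are labelled epithelial, yet 9 smooth muscle markers summed to 2375 to 6511 and 229 to 357 CPM, and 9 stromal fibroblast markers to 9866 to 21740 and 2682 to 4097 CPM. Macrophage markers (9 genes) summed to 52.2 to 322 and 726 to 4021 CPM. Sums of 9 markers of stratified or basal epithelium ran from 9.04 to 10.6 and from 13.7 to 33.04 CPM, and Krt6a was at 0 in every library. In such bulk samples fewer cells of a type and less RNA per cell cannot be told apart, and the part of these cell type differences in the results below was not tested.

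All 3 proteases were many times higher in each library labelled Axin2+ than in any labelled Axin2-. St14 (ENSMUSG00000031995, chromosome 9, 31089402 to 31131853 on the minus strand of mm10) stood at 8.46, 17.7 and 14.1 CPM in the mouse 1, 2 and 3 libraries labelled Axin2-, and at 156, 195 and 149 CPM in those labelled Axin2+. Its groups did not overlap, with means of 13.4 ± 4.66 and 167 ± 25.2 CPM (SD, n = 3 each, as for every mean below) and a log2 fold change of 3.63 ± 0.29 (SE). Mouse 1 was lowest among the libraries labelled Axin2-, and mouse 2 was highest in both fractions. Prss8 (ENSMUSG00000030800, chromosome 7, 127925716 to 127930104, minus strand) stood at 0.680, 3.67 and 1.96 CPM in the libraries labelled Axin2- and at 46.2, 46.9 and 32.8 CPM in those labelled Axin2+. It showed the widest spread among the libraries labelled Axin2- of the 3 proteases (coefficient of variation 71.4%) with the same lowest library, of mouse 1. Its log2 fold change of 4.31 ± 0.57 (SE) became 4.997 when the mouse 2 library labelled Axin2- was left out, and 4.91 when both of mouse 2 were. Of the 1852 exonic bases of Prss8, 122 are shared with Kat8 on the opposite strand. Whether counting used strand is not given in the sources used here, so reads in that stretch cannot be told apart. Tmprss2 (ENSMUSG00000000385, chromosome 16, 97564682 to 97611195, minus strand) stood at 4.49, 5.96 and 5.87 CPM against 56.4, 57.8 and 43.8 CPM, a log2 fold change of 3.28 ± 0.19 (SE). It had the smallest spread of the 3 proteases in the libraries labelled Axin2-, with a coefficient of variation of 15.1%.

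Both Kunitz inhibitors were also higher in the libraries labelled Axin2+, Spint2 from a higher level and by less. Spint1 (ENSMUSG00000027315, chromosome 2, 119237362 to 119249527, plus strand) stood at 2.82, 3.23 and 5.46 CPM in the libraries labelled Axin2- and at 43.5, 45.1 and 37.1 CPM in those labelled Axin2+. The groups did not overlap, and the log2 fold change was 3.45 ± 0.28 (SE). The library labelled Axin2- with the highest Spint1 was that of mouse 3, whereas for St14 and Prss8 it was that of mouse 2. Spint2 (ENSMUSG00000074227, chromosome 7, 29256323 to 29281912, minus strand) stood at 39.0, 31.1 and 40.3 CPM against 227, 259.6 and 225 CPM. Its log2 fold change of 2.69 ± 0.15 (SE) was the smallest of the 6 genes that could be fitted. It was the one gene of the set that stood at over 30 CPM in every library labelled Axin2-.

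The clade B serpins lay at the extremes of the set, Serpinb11 with the largest difference and Serpinb5 with hardly any reads. Serpinb11 (ENSMUSG00000026327, chromosome 1, 107361198 to 107380475, plus strand) had 8, 5 and 0 reads in the libraries labelled Axin2- and 961, 616 and 1616 reads in those labelled Axin2+. On the CPM scale this was 0.156, 0.0874 and 0 against 16.6, 11.6 and 30.1. The library labelled Axin2+ of mouse 3 was thus the highest for Serpinb11 and the lowest for St14, Prss8, Tmprss2, Spint1 and Spint2. The 13 reads against 3193 gave a ratio of 234.5, with an exact 95% counting interval of 137 to 441 that covers counting error only. The fitted log2 fold change was 7.85 ± 0.79 (SE), or 8.66 when the mouse 1 library labelled Axin2- was left out, 8.76 without both libraries of mouse 1 and 6.86 without both of mouse 3. The authors' deposited table gives a log2 fold change of 7.84 for Serpinb11. Serpinb5 (ENSMUSG00000067006, chromosome 1, 106861173 to 106883348, plus strand) had 1, 0 and 0 reads in the libraries labelled Axin2- and 5, 28 and 0 in those labelled Axin2+. Its groups overlapped, and it had too few reads to be tested. The ratio of 31.5 (95% counting interval 5.275 to 1282) rested on mouse 2, without which 1 read stood against 5 (ratio 4.48, interval 0.501 to 212). The 0 reads in the library labelled Axin2+ of mouse 3 allow up to 0.0558 CPM, the level of 3 counts.

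**Figure D1:**
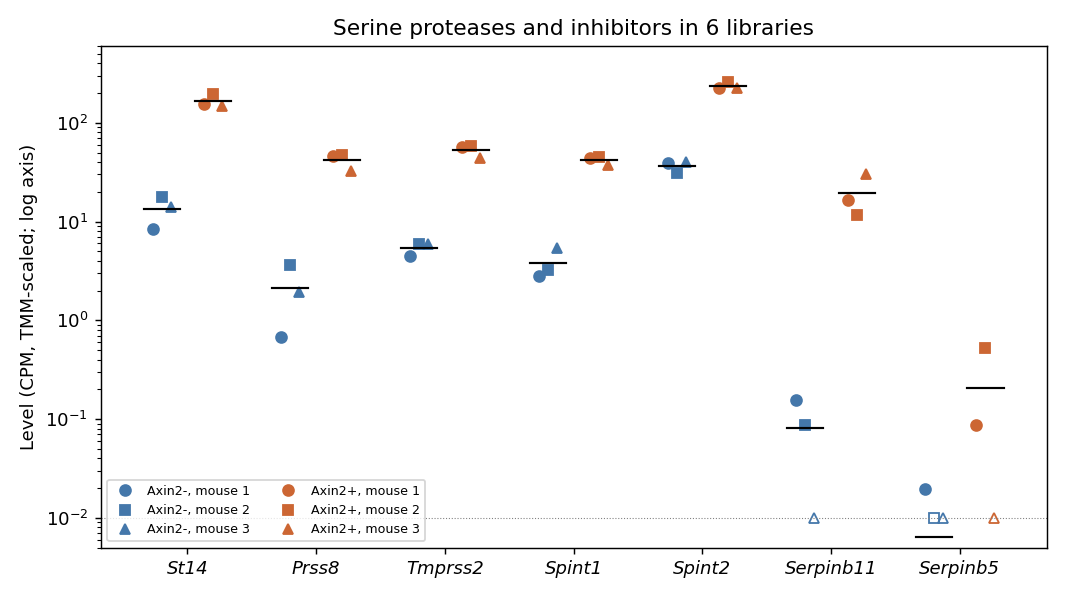
Level of each gene in each library (CPM on a log axis), with blue for libraries labelled Axin2-, orange for those labelled Axin2+, marker shape for the mouse, and black bars for the mean of 3 libraries. Open markers on the dotted line are libraries with 0 reads, drawn at an arbitrary height. The groups are separate for the 6 genes from St14 to Serpinb11 and overlap for Serpinb5, where 3 libraries are at 0.

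Of the 7 genes, 6 passed the filter on low counts, and all 6 were called higher in the libraries labelled Axin2+ by edgeR's quasi-likelihood test at an adjusted p of 0.05, against 14.5% of the 16896 genes tested called higher and 27.3% called in either direction. In 6 of the 7 the lowest library labelled Axin2+ stood above the highest labelled Axin2-, which held for 23.9% of the genes tested. The choice of the genes used this comparison, so neither count is a test of them and nothing is read from either. By size of the log2 fold change among all genes tested, Serpinb11 had rank 20 from the top, Prss8 149, St14 353, Spint1 433, Tmprss2 526 and Spint2 851. Across the 17 other settings the sign of none of the 6 changed. The lowest library labelled Axin2+ stood from 5.59 times (Spint2) to 74.8 times (Serpinb11) above the highest labelled Axin2-. Rescaling or leaving out libraries could therefore hardly reverse a sign, and nothing is read from this either. Serpinb11 also passed the filter through the libraries labelled Axin2+, so it had to be higher.

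Per kilobase of annotated exon the order of the levels differed from that by CPM. In the libraries labelled Axin2+ Spint2 led with 52.1 ± 4.22 CPM per kilobase. Prss8 and St14 followed at 22.7 ± 4.29 and 21.8 ± 3.30, closer to each other than the spread between libraries, and Spint1 stood at 15.1 ± 1.54. Serpinb11 at 8.89 ± 4.37 and Tmprss2 at 7.22 ± 1.06 CPM per kilobase did not differ beyond their spread either. Serpinb5 came last with 0.0745 ± 0.103. In the libraries labelled Axin2- Spint2 again led, at 8.08 ± 1.10, ahead of St14 at 1.76 ± 0.610, Spint1 at 1.39 ± 0.513, Prss8 at 1.14 ± 0.810 and Tmprss2 at 0.745 ± 0.113, which overlapped in part. With the longest transcript in place of the exon union, 4 genes changed rank in the libraries labelled Axin2+: St14, at 46.9 ± 7.10, moved ahead of Prss8, and Tmprss2, at 9.58 ± 1.40, ahead of Serpinb11 at 9.32 ± 4.58. The annotated exons of St14 span 7637 bases and its longest transcript 3550.

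The balance between inhibitor and protease transcripts was read within each library from these levels per kilobase. The ratio of Spint2 to St14 was 7.73, 2.94 and 4.80 in the libraries labelled Axin2- and 2.45, 2.23 and 2.54 in those labelled Axin2+. The groups did not overlap, although the lowest library labelled Axin2- lay near those labelled Axin2+. The ratio of Spint1 to St14 was 0.920, 0.504 and 1.07 against 0.771, 0.637 and 0.688, and the groups overlapped. Spint2 exceeded Spint1 8.41, 5.84 and 4.49 times in the libraries labelled Axin2- and 3.17, 3.50 and 3.69 times in those labelled Axin2+. Among the proteases, the ratio of Prss8 to St14 was 0.332, 0.855 and 0.573 against 1.22, 0.991 and 0.911. Prss8 thus stood below St14 in each library labelled Axin2- and near it in those labelled Axin2+, on this length scale. The ratio of both inhibitors to St14 and Prss8 together was 6.50, 1.86 and 3.73 against 1.45, 1.44 and 1.69, so that inhibitor transcripts exceeded protease transcripts in all 6 libraries. Another choice of gene length shifts a ratio of 2 single genes by the same factor in every library.

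Set against the mean of the 10 epithelial markers in the same library, 3 of the 6 fitted genes, St14, Spint1 and Tmprss2, differed between the fractions about as much as that mean did. The mean log2 CPM of the 10 epithelial markers was 4.11 ± 0.353 in the libraries labelled Axin2- and 7.62 ± 0.316 in those labelled Axin2+, a difference of 3.51. St14 stood at -0.42 ± 0.19 and -0.25 ± 0.35 relative to it on the log2 scale, Spint1 at -2.22 ± 0.47 and -2.24 ± 0.22, and Tmprss2 at -1.67 ± 0.14 and -1.91 ± 0.19, each with overlapping groups. Prss8 stood at -4.20, -2.51 and -3.21 in the libraries labelled Axin2- and at -2.41, -2.06 and -2.27 in those labelled Axin2+, without overlap but with its range in the former far wider. Spint2 went the other way, at 1.57, 0.56 and 1.13 against -0.11, 0.40 and 0.51. Serpinb11 was 4.03 further up than the epithelial markers, at -7.48 ± 1.43 against -3.45 ± 0.92, where its level at few or 0 reads depends on the prior count of 2. With Epcam alone as the reference, which itself differed by 4.28, the differences were -0.59 for St14, 0.30 for Prss8, -0.79 for Spint1, -1.58 for Spint2, -1.01 for Tmprss2 and 3.27 for Serpinb11. The groups then overlapped for Prss8 and Spint1. For St14, Tmprss2 and Spint2 they were separate, with the lower relative level in the libraries labelled Axin2+. Only Spint2, lower, and Serpinb11, higher, were thus outside overlap in the same direction with both references.

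**Figure D2:**
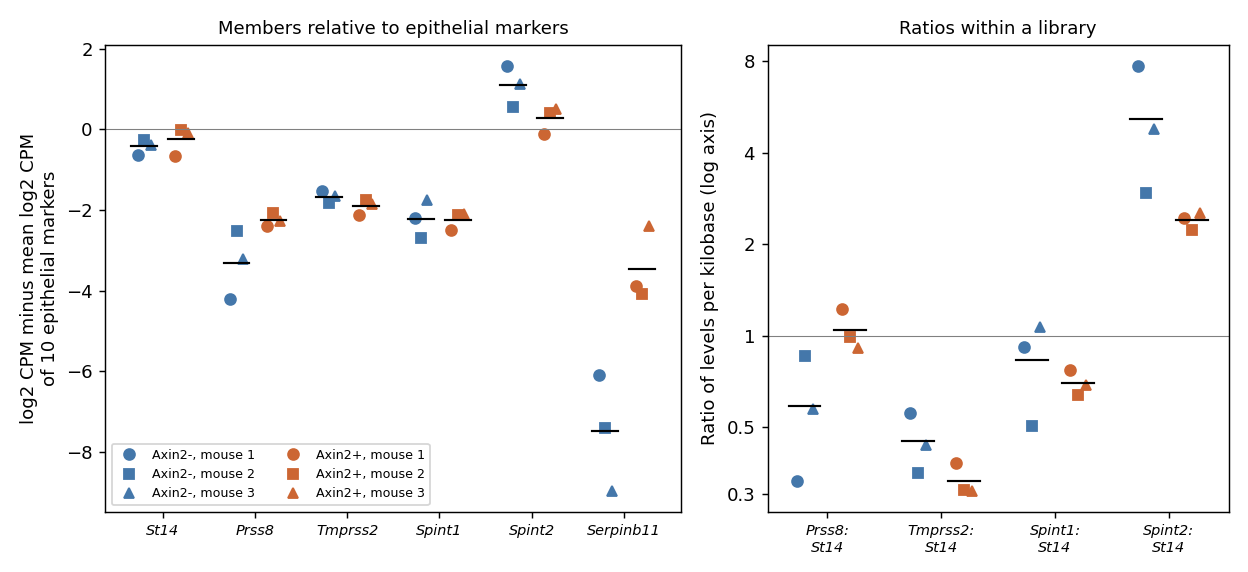
Left, log2 CPM of each fitted gene minus the mean log2 CPM of 10 epithelial markers in the same library; right, ratios of levels per kilobase within a library on a log axis. Colours, shapes and bars are as in the plot of levels by library. Serpinb11 lies 4.03 higher in the libraries labelled Axin2+ relative to the epithelial markers, while St14, Tmprss2 and Spint1 overlap between the fractions.

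Genes whose centred log2 CPM profile over the 6 libraries lay nearest to each of the 6 were sought among 11077 genes with a mean of at least 5 CPM. Predicted genes (Gm or Rik names) were left out. Profiles were not scaled, so the distance depends largely on the size of the difference between the fractions. That difference was in view when the genes were chosen, so nothing further is read from the matches. For St14 they were Mecom, at a Euclidean distance of 0.143 on the log2 scale, and Hoxb8, at 0.234. For Prss8 they were Fxyd3 (0.384) and the tight junction gene Ocln (0.521). Susd1 (0.157) and Cnksr1 (0.262) lay nearest to Spint1, Faah (0.255) and Gpr116 (0.290) to Spint2, and Epb4.1l4a (0.198) and Il17re (0.253) to Tmprss2. Serpinb11, whose level at few or 0 reads depends on the prior count, had no near neighbour among the genes searched. The closest were the uterine gland genes Foxa2, at 1.17, and Cxcl15, at 1.57, with log2 fold changes of 6.93 and 9.96. Foxa2, a transcription factor of uterine glands, stood at 0.185 ± 0.142 and 23.2 ± 2.67 CPM, and Cxcl15 at 0.0123 ± 0.0107 and 15.0 ± 6.23 CPM.

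Serpinb11 and Serpinb5 lie 477.8 kb apart in a cluster of 12 clade B serpin genes that spans 749.3 kb of chromosome 1, and reads were found on either side of a middle stretch without any. The 5 genes between them in the middle, Serpinb13, Serpinb3a, Serpinb3d, Serpinb3b and Serpinb3c, had 0 reads in every library. Serpinb3b and Serpinb3c overlap on the same strand, and reads shared between genes may go uncounted. For them 0 counted reads therefore does not exclude transcripts. Serpinb12, next to Serpinb5, had 0 reads in the libraries labelled Axin2- and 11, 6 and 7 in those labelled Axin2+, at least 2.51-fold higher with a floor of 3 counts per library. Serpinb7, 19.2 kb beyond Serpinb11, rose from 0.214 ± 0.248 to 3.65 ± 0.238 CPM (log2 fold change 4.07 ± 1.04 SE, edgeR adjusted p = 0.0267). Leaving out the mouse 1 library labelled Axin2- gave 5.47 on the log2 scale. Serpinb7 failed to pass when the mouse 2 library labelled Axin2- (adjusted p = 0.0759), or the mouse 2 or mouse 3 library labelled Axin2+ (0.0708 and 0.0519), was left out. Serpinb8, at the far end, rose from 1.83 ± 0.957 to 10.99 ± 6.63 CPM (log2 fold change 2.58 ± 0.55 SE, edgeR adjusted p = 0.0138). Among the libraries labelled Axin2+ Serpinb8 was highest in mouse 1, at 18.5 against 8.48 and 5.99 CPM in mice 2 and 3. The marker sums of macrophages (4021, 2134 and 726 CPM), epithelium (3402, 2743 and 2264 CPM) and mesothelium (536, 185 and 295.5 CPM) were also highest in mouse 1, and their part in it was not tested. Leaving out that library gave 1.98 on the log2 scale, and Serpinb8 failed to pass when the mouse 3 library labelled Axin2- was left out (adjusted p = 0.0593). Serpinb2, a plasminogen activator inhibitor, did not pass (adjusted p = 0.345), with 64 of the 86 reads of the fraction labelled Axin2+ in mouse 1. Serpinb7 and Serpinb10-ps, the older symbol of Serpinb10, passed the low-count filter through the libraries labelled Axin2+, so any call had to be higher. Serpinb10-ps, which shares 291 exonic bases with Serpinb2, had 6 reads against 124 (adjusted p = 0.0326). It did not pass when mouse was added as a block (0.0816), without the libraries labelled Axin2- of mouse 1 or 2 (0.107 and 0.0596), or without those labelled Axin2+ of mouse 1 or 2 (0.0704 and 0.109), and its log2 fold change went from 4.17 to 6.03 when the mouse 3 library labelled Axin2- was left out.

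**Figure D3:**
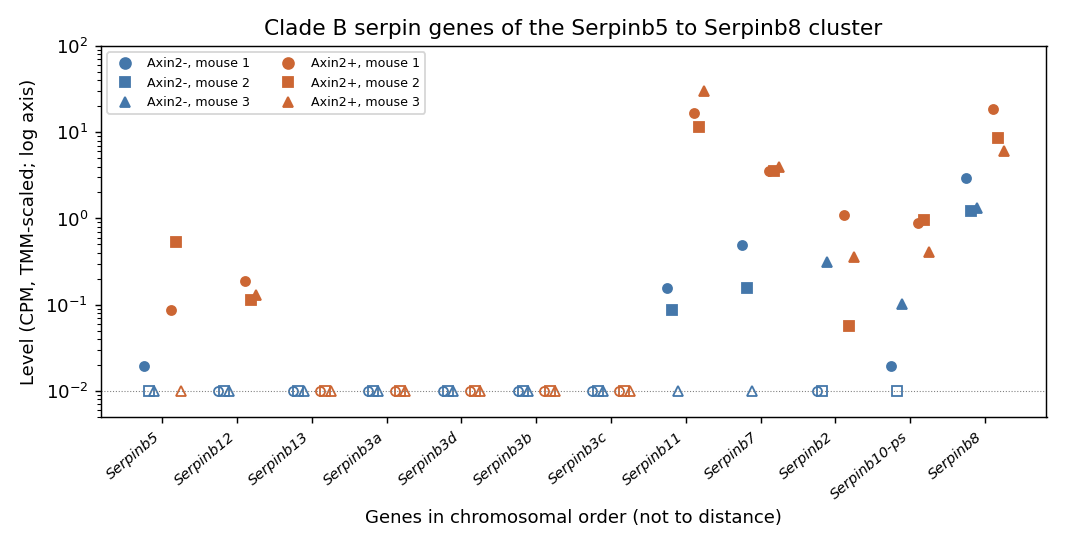
CPM (log axis) of the 12 clade B serpin genes of the cluster in chromosomal order, by library, with colours and shapes as in the plot of levels by library and open markers for 0 reads. The 5 middle genes are at 0 throughout, and Serpinb11 reaches the highest level of the cluster.

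Clade B serpins outside this cluster did not pass the test in either direction. Serpinb6a, an inhibitor found in many tissues, stood at 98.8 ± 16.8 and 109 ± 32.3 CPM (edgeR adjusted p = 0.671), Serpinb1a at 18.05 ± 6.43 and 18.8 ± 3.34 CPM (0.906) and Serpinb9, an inhibitor of granzyme B, at 15.0 ± 1.32 and 12.6 ± 2.18 CPM (0.357). Serpinb6b (0.254), Serpinb6c (0.0697) and Serpinb9b (0.556) did not pass either. In DESeq2 Serpinb6c passed (adjusted p = 0.0206). Of 25 listed clade B serpins other than Serpinb11 and Serpinb5, 10 were tested, of which 7 did not pass and 3 rose, those 3 being Serpinb7, Serpinb8 and Serpinb10-ps of the chromosome 1 cluster. Of all 16896 genes tested, 14.5% were called higher. Serpinb7 and Serpinb10-ps passed the filter through the libraries labelled Axin2+, so nothing is read from the 3 of 10.

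Other serine proteases and inhibitors, listed by family and pathway, moved both ways. Of 203 such genes 80 were tested, and 25 rose and 12 fell, or 31.2% and 15.0% of those tested, against 14.5% and 12.8% of all 16896 genes. Their median log2 fold change was 0.23, against -0.01 over all genes tested. The counts were 12 and 3 without both libraries of mouse 2, and 7 fell when only its library labelled Axin2+ was left out. The nearest relatives of matriptase and TMPRSS2 are the other type II transmembrane proteases. Of 18 of these 4 had enough reads to be tested, and these 4 were called higher. A gene with few reads in the libraries labelled Axin2-, such as Tmprss6 with 8, 0 and 13 against 191, 184 and 350, passed the filter through the other fraction and had to be higher, so counts and medians of the lists that hold such genes are partly set by the filter. Hpn, which encodes hepsin, rose from 3.76 ± 0.999 to 30.9 ± 1.49 CPM (log2 fold change 3.04 ± 0.22 SE, edgeR adjusted p = 0.000313). Tmprss4 rose from 0.435 ± 0.222 to 6.49 ± 1.94 CPM, and Tmprss6, matriptase-2 and a regulator of iron balance in liver, from 0.141 ± 0.134 to 4.43 ± 1.81 CPM. The log2 fold change of Tmprss6, 4.98, became 4.38 or 5.84 when the mouse 2 or the mouse 3 library labelled Axin2- was left out, and it failed to pass without both libraries of mouse 1 (adjusted p = 0.0529) or mouse 3 (0.0571). The other gene, Tmprss13, named after its values were seen, rose by 3.32 on the log2 scale (adjusted p = 0.0305), but failed to pass when mouse entered as a block (0.0537) and when the mouse 2 library labelled Axin2- (0.0751), or the mouse 1 or mouse 2 library labelled Axin2+ (0.0519 and 0.0791), was left out. Its log2 fold change became 4.08 when the mouse 3 library labelled Axin2- was left out. Of 33 genes that share the Prss name with Prss8, 5 were tested, 3 did not pass and 2 fell. The 2 were Prss57, with 141 reads against 2 (ratio 0.0135, 95% counting interval 0.00162 to 0.0498), and Prss53. With 39, 52 and 50 reads against 0, 2 and 0, Prss57 passed the filter through the libraries labelled Axin2- alone and had to be lower. The fitted log2 fold change of Prss57, -5.95, became -8.60 when the mouse 2 library labelled Axin2+ was left out, and Prss57 failed to pass without both libraries of mouse 2 (adjusted p = 0.0522) or of mouse 3 (0.0564). Prss53 fell from 5.38 ± 2.73 to 1.75 ± 0.239 CPM, and failed to pass when mouse was added as a block (adjusted p = 0.0548), or when the mouse 3 library labelled Axin2- (0.0785) or the mouse 2 or mouse 3 library labelled Axin2+ (0.0989 and 0.0687) was left out. Of 26 kallikreins 5 were tested, and Klk8 rose from 0.612 ± 0.292 to 4.79 ± 0.906 CPM (edgeR adjusted p = 0.00409, or 0.0642 without both libraries of mouse 2).

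Of 4 HTRA proteases, which are secreted or mitochondrial, 2 fell, Htra3 from 243 ± 38.0 to 60.7 ± 20.7 CPM and Htra1 from 189 ± 32.3 to 68.1 ± 25.9 CPM (edgeR adjusted p = 0.00208 and 0.00992). Htra1 failed to pass without both libraries of mouse 2 (0.103). Among all 16896 genes tested, 14.5% were called higher and 12.8% lower. Of 8 tested proprotein convertases Furin rose (log2 fold change 0.58 ± 0.13 SE), Pcsk5 fell by 1.70 ± 0.30 (SE) on the log2 scale, and 6 did not pass. Furin failed to pass when the mouse 3 library labelled Axin2- (adjusted p = 0.0582) or the mouse 2 library labelled Axin2+ (0.0768) was left out, and Pcsk5 without both libraries of mouse 1 (0.0537) or mouse 2 (0.0680). Of 4 tested genes of plasminogen activation, Plat, the tissue-type activator, rose from 73.3 ± 5.90 to 480.4 ± 46.6 CPM (edgeR adjusted p = 0.000192), whereas Plau, the urokinase-type activator and a substrate of matriptase, stood at 14.2 ± 7.57 and 16.2 ± 13.9 CPM (0.858), and the sign of its difference changed on leaving out the mouse 1 library labelled Axin2+ (log2 fold change -0.73).

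Among inhibitors of other kinds, the Kunitz domain genes were divided. App and Aplp2 rose by 0.87 ± 0.15 and 0.63 ± 0.15 (SE) on the log2 scale, Tfpi, the inhibitor of tissue factor, fell from 40.04 ± 7.22 to 14.3 ± 4.75 CPM, and 3 of the 6 tested did not pass (median -1.08). Aplp2 failed to pass when the mouse 1 library labelled Axin2- (adjusted p = 0.0612) or the mouse 2 library labelled Axin2+ (0.0892) was left out. Without both libraries of mouse 2 neither App (0.0659) nor Tfpi (0.0918) passed, and without both of mouse 3 App did not (0.0509). Spint3, Spint4 and Spint5, the namesakes of Spint1 and Spint2, had too few reads to be tested. Of 13 tested serpins of other clades 4 fell, among them Serpine2, an inhibitor of thrombin and other serine proteases, by 2.21 ± 0.32 (SE) on the log2 scale. Another of the 4, Serpinh1, a collagen chaperone, fell by 1.19 ± 0.31 (SE; adjusted p = 0.0302), but failed to pass when mouse entered as a block (0.0558), without scaling factors (0.0564) and when any single library other than the mouse 3 one labelled Axin2+ was left out (0.0506 to 0.0968). Serpina1e rose from 1.40 ± 0.863 to 20.96 ± 7.58 CPM. It is one of several near-identical copies between which reads can be split, so its level is uncertain. Of 8 tested WAP and Kazal inhibitors 4 rose and 1 fell, against 14.5% and 12.8% of all genes tested. Their median was 3.29, or 3.23 with Spink8, at 0 reads in the libraries labelled Axin2-, at its lower bound (106 reads in those labelled Axin2+, at least 11.2-fold higher). Spink8 passed the filter through the libraries labelled Axin2+ alone, so the count and median of this list are partly set by the filter. Spink8 failed to pass when mouse entered as a block (adjusted p = 0.0527) or without both libraries of mouse 2 (0.0646). Wfdc2, also on the list of uterine gland markers, rose from 20.8 ± 10.1 to 254 ± 53.6 CPM, and Reck, which restrains matrix metalloproteinases, fell from 106 ± 22.3 to 33.2 ± 16.3 CPM. Reck did not pass without the libraries labelled Axin2- of mouse 2 or 3 (adjusted p = 0.0518 and 0.0573) or that labelled Axin2+ of mouse 2 (0.0610).

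Known substrates and partners of the axis were listed as a group of their own. Of 13 tested, 8 rose and 1 fell, against 14.5% and 12.8% of all genes tested. The median log2 fold change of the 13 was 2.28, and 2 of those that rose, Epcam and Cldn7, are also among the 10 epithelial markers. Met, the receptor of hepatocyte growth factor, rose from 7.80 ± 1.01 to 65.0 ± 7.06 CPM, and Cldn7, a claudin that partners EPCAM, from 4.89 ± 1.64 to 62.6 ± 12.0002 CPM (edgeR adjusted p = 0.000192 and 0.000417). Scnn1a, a subunit of the sodium channel that prostasin activates, rose from 6.09 ± 0.250 to 35.5 ± 7.93 CPM (0.000382). The genes Scnn1b, Scnn1g, F2rl1 and Hgf, like Plau and Spink8 above, were named for their roles after their values were seen. The beta subunit Scnn1b stood at 4.65 ± 1.53 and 3.25 ± 2.22 CPM (0.578, not passed), and the gamma subunit Scnn1g had too few reads to be tested. F2rl1, the protease-activated receptor PAR2 that matriptase cleaves, rose from 3.99 ± 2.03 to 19.4 ± 5.15 CPM (0.00623, or 0.0604 without both libraries of mouse 2). Its relative F2r, the thrombin receptor, fell from 47.2 ± 17.5 to 17.1 ± 7.39 CPM (0.0325). F2r did not pass when mouse was added as a block (0.0576), without scaling factors (0.0521), without the libraries labelled Axin2- of mouse 1 or 2 (0.0828 and 0.0890) or without that labelled Axin2+ of mouse 2 (0.0970). Hgf, the growth factor that matriptase and hepsin activate, stood at 38.3 ± 15.3 and 15.5 ± 6.87 CPM (0.0559, not passed). It passed as lower when mouse entered as a block (0.00941), in DESeq2 (0.00618), and when the mouse 1 library labelled Axin2- (0.0318) or the mouse 3 library labelled Axin2+ (0.0292) was left out.

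**Figure D4:**
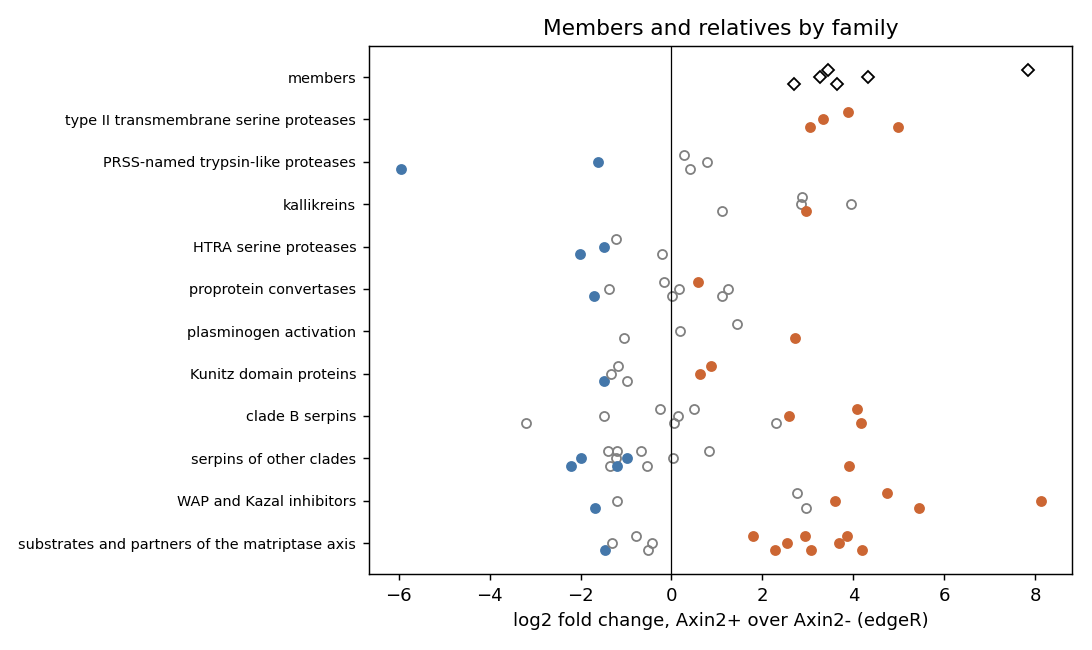
Log2 fold change (libraries labelled Axin2+ over those labelled Axin2-, edgeR) of the tested genes by family. Open diamonds are the 6 fitted genes of the set, shown with no test, filled orange and blue circles are relatives that passed higher and lower, and open grey circles are relatives that did not pass. The 4 type II transmembrane proteases with enough reads passed higher, and 2 of the 4 HTRA proteases passed lower. Among all genes tested, 14.5% were called higher and 12.8% lower. Tmprss6 passed the filter through the libraries labelled Axin2+, so the count of the transmembrane proteases is partly set by the filter.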

How the data were processed

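RNA-seq counts of 6 libraries, 3 per fraction, were used. Whole-number read counts per gene were deposited by the authors. Named in the submitters' processing notes, with no order, are the build mm10, edgeR 3.22.5, StringTie 1.3.3, featureCounts 1.5.3 (Subread), STAR 2.5.3a and bcl2fastq 2.20.0.422. Neither annotation version nor strand setting was given in the sources used. The authors' deposited comparison table holds log2 fold changes and log2 CPM, an F statistic (a score), p-values and counts, and the counts of its 15469 genes equal those of the count table. A mapping summary by the authors gives read counts and the percent of read pairs assigned to 1 feature, 29.26 to 38.86, per the file headers.

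Genes were filtered with filterByExpr, scaled by TMM and fitted with quasi-likelihood (robust) and F-tested in edgeR 4.0.16 (R 4.3.3), with p-values adjusted by Benjamini-Hochberg over 16896 genes and a threshold of 0.05. Each SE is the log2 fold change divided by the root of F. The fit was tested on simulated data. The log2 CPM used for profiles and epithelial references had a prior count of 2. Gene lengths and coordinates come from GENCODE M21 (GRCm38, the assembly mm10 names). All 7 genes, their lists and the tests were chosen with earlier results of these data known. Named relatives are, per family and direction, up to 3 genes with the smallest p among those that passed (2 with the highest CPM where none did), every tested clade B serpin, the 2 nearest profiles per gene and Axin2; some are described. All 203 relatives were found, 7 under an older symbol.

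The labels number the libraries by mouse. Once each fraction mean was removed, the libraries of a mouse correlated over genes, for mice 1, 2 and 3, at 0.27, 0.01 and -0.07. Between the fractions, libraries of different mice correlated at -0.24 to 0.25, so the value of mouse 1 hardly stands out. Pairs of libraries within a fraction differed by more than sampling noise (chi-square per degree of freedom at least 59.7). Alternatives were other scalings, filters, DESeq2 1.42.0, the mouse as a block and leaving out libraries or mice.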

Additional observations from a re-analysis of the deposited data

How the results depend on the processing

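The 6 fitted genes kept their direction in all 17 other settings, with log2 fold changes of 3.42 to 3.89 for St14, 3.84 to 4.997 for Prss8, 3.13 to 3.47 for Tmprss2, 3.27 to 3.89 for Spint1, 2.51 to 2.86 for Spint2 and 6.86 to 8.76 for Serpinb11. The groups of these 6 did not overlap when they were chosen, so nothing is read from their kept direction. Serpinb5 could not be fitted after the filter. Leaving out a library or a mouse gave 1018 to 2304 genes higher and 693 to 1911 lower in the libraries labelled Axin2+ (2447 and 2171 with all), and 12 to 25 relatives higher and 3 to 15 lower (25 and 12 with all). DESeq2 called 34 relatives higher and 22 lower. With the mouse as a replicate block 2085 genes were higher and 1869 lower, and 30 of the 37 relatives called with all libraries were still called; the block changed the call of Prss53, Tmprss13, Serpinb10-ps, Serpinh1, Spink8, F2r and Hgf (the last now past the threshold) and of no other relative named, and turned the uncalled Plau to -0.063. Serpinh1, among the serpins that fell, had an adjusted p of 0.0558 there. With no scaling factors the median of all genes moved from -0.01 to 0.16 (log2), with 3255 genes higher and 1573 lower; the cause of these shifts was not tested. Relative to Epcam in place of 10 epithelial markers, the differences on the log2 scale were -0.59 against 0.17 for St14, 0.30 against 1.06 for Prss8, -0.79 against -0.02 for Spint1, -1.58 against -0.82 for Spint2 and -1.01 against -0.24 for Tmprss2, since Epcam differed by more than the 10 markers. Lengths of the longest transcripts changed the rank of 4 genes per kilobase. Among genes that did not pass, the sign changed on leaving out libraries or mice, with log2 fold changes of -0.30 to 0.46 for Serpinb1a (-0.17 and -0.07 also negative), -0.15 to 0.34 for Serpinb6a (-0.09 also), -0.73 to 0.74 for Plau (-0.08 and -0.20 also), -1.04 to 0.086 for Scnn1b, -0.37 to 4.37 for the neutrophil marker S100a9 (-0.22 also) and -0.26 to 0.33 for the basal marker Trp63 (-0.09, -0.02 and -0.04 also). Depth limits Serpinb5, Serpinb12 and the middle of the serpin cluster, where reads are few or none. The overlap of Serpinb3b with Serpinb3c may also limit their counts.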
